A study of Mus musculus with 2 samples.

Results

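The genes described here are Ccl3, Ccl4 and Ccl5, which encode 3 CC chemokines, and Ccr1, which encodes a receptor that all of them can bind. They are 4 of the 35208 gene rows of a single-cell expression matrix and were taken by symbol. All chemokine and chemokine receptor genes were also left out of the clustering that defined the cell types. The cells came from ears with IgE-CAI, a model of chronic allergic skin inflammation that depends on IgE. The BALB/c mice were wild-type (WT) or lacked Ccr2 (Ccr2-/-). All mice were given 300 µg of TNP-specific IgE intravenously (TNP is a hapten) and, on the next day, 10 µg of TNP-coupled ovalbumin in the right ear. The left ear, which received ovalbumin without hapten, was not analysed here, so every group was inflamed skin. Cells were taken on day 3 and day 5 after challenge. Each genotype and day formed 1 pool marked by its own hashtag antibody, and the 4 pools were mixed and made into 1 cDNA library and 1 hashtag library. The labels do not say how many mice a pool held, and genotype, pool and hashtag cannot be told apart. By the study's methods the mice were males aged 7 to 12 weeks. Ccr2 is the receptor that classical monocytes use to leave the bone marrow, and the Ccr2-/- mice lacked it in all cells.

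CC chemokines are small secreted proteins that guide leukocytes by activating G protein-coupled receptors. CCL3 and CCL4 (also called MIP-1α and MIP-1β) are made within hours by activated myeloid cells, mast cells, basophils and lymphocytes, mainly by new transcription driven by NF-kB. CCL5 (RANTES) is typical of cytotoxic lymphocytes, which keep its transcript ready. CCR1 is found mostly on neutrophils, monocytes and macrophages, and in allergic tissue also on eosinophils and basophils.

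Ccl3, Ccl4 and Ccl5 lie in the CC chemokine cluster of chromosome 11. In GENCODE M21 on GRCm38, Ccl5 spans chr11:83525778-83530518 and Ccl3 spans chr11:83647844-83649355, both on the minus strand. Ccl4 spans chr11:83662584-83664683 on the plus strand. Ccl3 and Ccl4 therefore point away from each other, with 13228 bases between them, whereas 117325 bases separate Ccl5 from Ccl3. Ccr1 lies on another chromosome, at chr9:123962124-123968692 on the minus strand. None of the 4 overlapped another annotated gene.

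Promoter sequence (RefSeq, GRCm38.p6) was at hand for 2 of the 4 genes, Ccl3 and Ccr1, a ligand and its receptor. The 250 bases before each start site are shown 5′ to 3′ on the minus strand, chr11:83649379-83649628 for Ccl3 and chr9:123968693-123968942 for Ccr1. Capitals mark the matches to the motifs searched on both strands.
Ccl3: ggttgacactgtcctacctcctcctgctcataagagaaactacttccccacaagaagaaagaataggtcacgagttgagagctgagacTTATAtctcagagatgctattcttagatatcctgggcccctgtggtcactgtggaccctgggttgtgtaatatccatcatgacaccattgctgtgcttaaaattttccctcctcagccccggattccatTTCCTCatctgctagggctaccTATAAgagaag
Ccr1: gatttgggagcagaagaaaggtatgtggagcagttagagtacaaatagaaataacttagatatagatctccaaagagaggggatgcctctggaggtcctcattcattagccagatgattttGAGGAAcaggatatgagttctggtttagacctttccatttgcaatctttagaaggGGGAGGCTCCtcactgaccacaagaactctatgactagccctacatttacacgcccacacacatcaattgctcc
The TATA motif TATAA matched the Ccl3 promoter at 2 places, 1 of them close to the start site, and had no match in that of Ccr1. It was present in 22.7% of 32536 promoters of the same length. The NF-kB motif GGGNNNNNCC matched once in Ccr1 and not in Ccl3, beside 46.0% of all promoters. The ETS motif GAGGAA matched once in each (23.4% of all promoters). The AP-1 motif TGANTCA (6.73%), the C/EBP motif TTGCNNAA (9.57%) and the GATA motif AGATAA (9.97%) had no match in either window. No 2 of these matches overlapped.

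The matrix held 8953 barcodes and 548117598 reads. Of these barcodes, 7118 had a single hashtag and passed the quality limits. The pools held 1543 (WT day 3), 1037 (WT day 5), 2191 (Ccr2-/- day 3) and 2347 cells (Ccr2-/- day 5), with a median of 18632 to 48232 reads per cell. The values are reads and not molecules, and PCR copies are counted separately. The intervals of levels below cover the counting error of reads only and are too narrow for that of molecules. Levels are given as reads of the gene per 1000000 reads (CPM) from the summed reads of a cell type in a pool, with exact Poisson 95% intervals, and shares of cells with a read after each cell was thinned to 5000 reads. Ccr2 itself checked the labels. In monocyte-macrophage-like (Mo-Mac-like) cells it was at 801 and 601 CPM in the WT pools and at 35.6 and 26.3 CPM in the Ccr2-/- pools. For the cells on which the results turn, the markers given next were on the lists that named the clusters. Their shares, taken before thinning, therefore describe the names and do not test them. Mcpt8, a basophil protease, had reads in 95.5% of basophil-like cells, S100a8 in 90.6% of neutrophil-like cells, and Ncr1 in 67.5% of NK or ILC-like cells. S100a8 also had a read in 42.4% of fibroblast-like cells, but at 22.3 CPM, beside 13643 CPM in neutrophil-like cells. The submitters called the cells skin-infiltrating, but 2074 of the 7118 were fibroblast-like. RNA from other cells was visible throughout, since the collagen transcript Col1a1 had a read in 77.6% of neutrophil-like and 91.6% of basophil-like cells. Shares in fibroblast-like cells are therefore given as a background. Whether a correction for such background reads, which the methods describe, had been made in this matrix is not given in the sources used here.

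Ccl3 and Ccl4 were several-fold higher in the Ccr2-/- pools than in the WT pools over all cells of a pool. Ccl3 was at 207 CPM in WT day 3, 106 CPM in WT day 5, 511 CPM in Ccr2-/- day 3 and 887 CPM in Ccr2-/- day 5. Ccl4 followed the same order, with 175 CPM, 85.7 CPM, 483 CPM and 809 CPM. Both Ccr2-/- pools were above both WT pools for each gene. The fold of Ccr2-/- over WT, on CPM + 1, was 2.46 at day 3 and 8.30 at day 5 for Ccl3, and 2.76 and 9.33 for Ccl4. Over both days the mean log2 difference was 2.18 for Ccl3 and 2.34 for Ccl4. An exact two-sided permutation test of the 4 pools gave p = 0.333 for each, the smallest value that 2 pools against 2 can give.

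Ccl5 and Ccr1 did not separate the genotypes in the summed reads. Ccl5 was at 77.6 CPM in WT day 3, 45.6 CPM in WT day 5, 62.9 CPM in Ccr2-/- day 3 and 97.8 CPM in Ccr2-/- day 5. Ccr1 was at 97.3 CPM, 57.4 CPM, 66.5 CPM and 117 CPM in the same order. For both genes the WT and Ccr2-/- pools overlapped, and the mean log2 difference was 0.39 for Ccl5 and 0.23 for Ccr1 (exact permutation p = 0.667 for each). This depended on how cells were weighted. With the mean of the cells' CPM, so that each cell counted alike, Ccr1 was at 157 CPM and 73.6 CPM in WT and at 333 CPM and 619 CPM in Ccr2-/-. Ccl5 was then at 231 CPM and 108 CPM in WT and at 252 CPM in each Ccr2-/- pool. The genotypes no longer overlapped, with a mean log2 difference of 2.07 for Ccr1 and 0.67 for Ccl5 (exact permutation p = 0.333 for each, the smallest possible). Without cells of over 100000 reads, a step chosen after the data were seen, the differences were 1.43 and 1.02, again with no overlap.

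**Figure D1:**
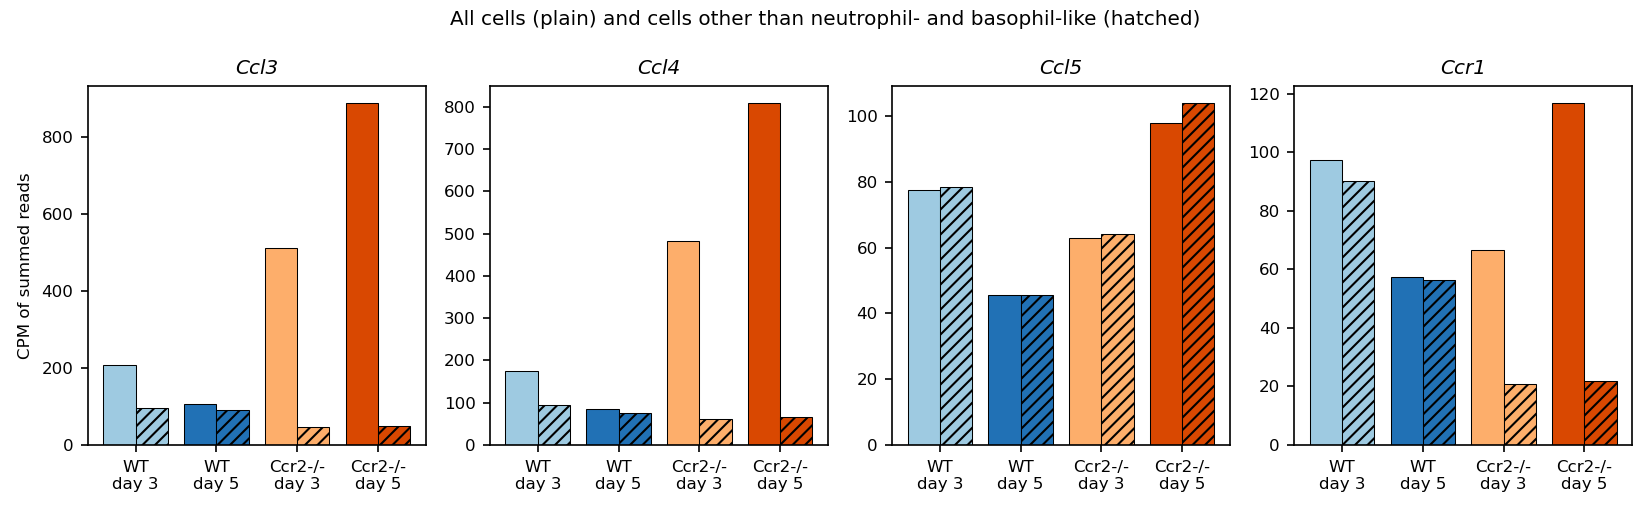
CPM of summed reads (y axis, starting at 0) of each gene in the 4 pools, for all cells of the pool (plain bars) and for all cells other than neutrophil-like and basophil-like cells (hatched bars); there is 1 pool per group, so no error bars are drawn. The plain Ccl3 bars reach 511 and 887 CPM in the Ccr2-/- pools, while the hatched Ccl3 bars are at 45.5 and 49.3 CPM there.

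The higher pool level of Ccl3 and Ccl4 lay in neutrophil-like and basophil-like cells. Together these cells held 1.31% of all reads in WT day 3, 0.233% in WT day 5, 3.64% in Ccr2-/- day 3 and 6.58% in Ccr2-/- day 5. They held 54.1%, 13.4%, 91.4% and 94.8% of the Ccl3 reads in the same order. Their part of the Ccl4 reads was 46.7%, 11.9%, 87.6% and 92.3%. Without them, Ccl3 was at 96.2 CPM and 92.1 CPM in the WT pools and at 45.5 CPM and 49.3 CPM in the Ccr2-/- pools, so the order of the genotypes was turned in the summed reads. Outside these cells Ccl4 was at 94.4 CPM, 75.7 CPM, 62.1 CPM and 66.7 CPM, again with both WT pools above both Ccr2-/- pools. This turned order depended on how cells were weighted, and the cause was not tested. For both genes it was kept without the 1 cell with the most reads in each pool. Ccl3 outside was then at 58.3 CPM and 88.8 CPM in WT and at 40.8 CPM and 46.3 CPM in Ccr2-/-. With the mean of the cells' CPM it was at 135 CPM and 149 CPM in WT and at 150 CPM and 186 CPM in Ccr2-/-, and Ccl4 was also higher in Ccr2-/- (log2 difference 0.24 for Ccl3 and 0.40 for Ccl4). Without cells of over 100000 reads the log2 difference outside was 0.20 for Ccl3, with overlapping genotypes, and 0.40 for Ccl4. These alternatives were added after the data were seen. Neutrophil-like cells made up 3.50% of cells in WT day 3, 0.579% in WT day 5, 18.3% in Ccr2-/- day 3 and 33.8% in Ccr2-/- day 5. Basophil-like cells made up 1.69%, 0.193%, 2.97% and 2.64%. In a level over all cells of a pool, more cells of a type and more RNA per cell cannot be told apart, and the values per type below separate them.

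**Figure D2:**
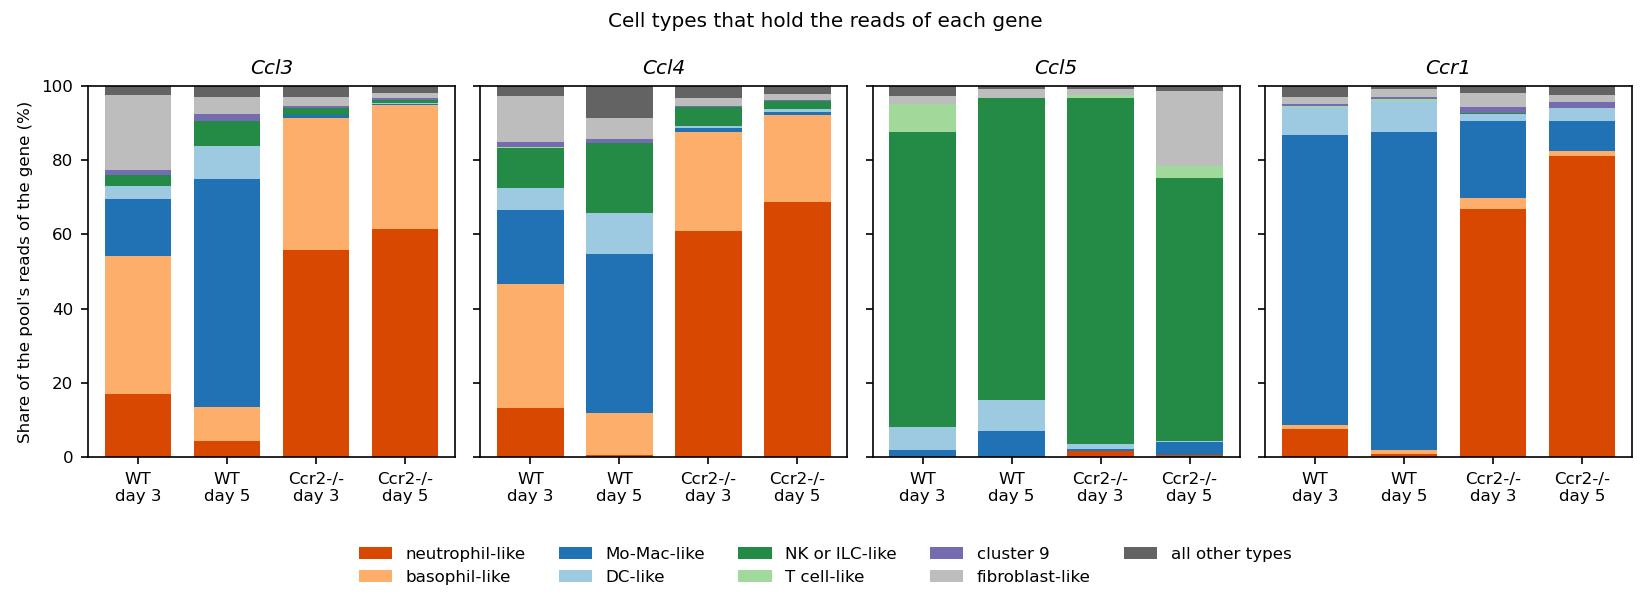
Share (%) of each gene's reads in a pool that each cell type held (stacked bars, 4 pools per gene, 1 pool per group). Neutrophil-like and basophil-like cells fill most of the Ccl3 and Ccl4 bars of the Ccr2-/- pools, NK or ILC-like cells hold 70.9% to 93.4% of the Ccl5 reads in every pool, and the Ccr1 bars pass from Mo-Mac-like cells in WT to neutrophil-like cells in Ccr2-/-.

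Ccl3 was highest in basophil-like cells, the small population of Mcpt8-expressing granulocytes that carry the IgE receptor. Its level there was 11498 CPM in WT day 3 (26 cells), 8581 CPM in WT day 5 (2 cells only), 19428 CPM in Ccr2-/- day 3 (65 cells) and 33541 CPM in Ccr2-/- day 5 (62 cells). After thinning, 25 of 26, 2 of 2, 63 of 64 and 60 of 60 of these cells had a Ccl3 read. The median cell had 69.5 Ccl3 reads per 5000 in WT day 3, 93 in Ccr2-/- day 3 and 137 in Ccr2-/- day 5, so the order of the pools was also that of the typical cell. In WT day 3, 1 basophil-like cell of over 100000 reads held 30.8% of all reads of the group. Without such cells, a step chosen after the data were seen, Ccl3 was at 14774 CPM in WT day 3 and 21218 CPM in Ccr2-/- day 3, and the order was kept.

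Neutrophil-like cells came next. Their Ccl3 level was 5464 CPM in WT day 3 (54 cells), 3705 CPM in WT day 5 (6 cells), 10565 CPM in Ccr2-/- day 3 (402 cells) and 9561 CPM in Ccr2-/- day 5 (793 cells). Both Ccr2-/- pools were above both WT pools. At 5000 reads per cell, 83.0% of the WT day 3 cells, 3 of 6 of the WT day 5 cells, 91.5% of the Ccr2-/- day 3 cells and 88.4% of the Ccr2-/- day 5 cells had a Ccl3 read. The shares before thinning were 83.3%, 50.0%, 92.0% and 87.8%. The median cell had 20, 11, 38 and 32 Ccl3 reads per 5000. WT day 5 rests on 6 cells, of which 1 held 66.0% of the Ccl3 reads, and no test of genotype was made in neutrophil-like or basophil-like cells because of these small numbers. The median depth of neutrophil-like cells was between 8407 and 11793 reads in the 4 pools.

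The other cell types had far lower Ccl3. Cluster 9, a shallow cluster of 272 cells led by Retnlg, Ccr3 and Alox15 that had too few detected eosinophil markers for a name, was at 946 CPM, 1697 CPM (19 cells), 918 CPM and 1253 CPM (WT at days 3 and 5, then Ccr2-/- at days 3 and 5). NK or ILC-like cells, which are innate lymphocytes, were at 294 CPM, 559 CPM, 310 CPM and 285 CPM. Dendritic cell-like (DC-like) cells were at 86.8 CPM, 107 CPM, 75.6 CPM and 63.2 CPM. In fibroblast-like cells the level was 107 CPM in WT day 3 and at most 18.7 CPM in the other pools, and 1 cell held 90.8% of the WT day 3 reads. Their share of cells with a Ccl3 read was 3.98%, 4.78%, 4.63% and 5.96% after thinning and 35.9%, 33.0%, 47.5% and 48.4% before it, at a median depth of 66077 to 126026 reads. This is the background against which the shares of other types were read. Neutrophil-like, basophil-like, NK or ILC-like, Mo-Mac-like, DC-like and blood endothelial-like cells were above it in all 4 pools.

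Among the 8 cell types with 20 or more cells in every pool, which leave out neutrophil-like and basophil-like cells, NK or ILC-like cells had the highest Ccl3. Their mean was 8.44 ± 0.46 on the log2(CPM + 1) scale (SD, n = 4 pools). Blood endothelial-like cells followed at 6.64 ± 1.26, lower by 1.80 and in 4 of 4 pools (exact two-sided sign-flip p = 0.125, the smallest that 4 pools can give). Blood endothelial-like, Mo-Mac-like (6.49 ± 0.85) and DC-like cells (6.37 ± 0.31) did not differ from one to the next beyond the spread between pools, and DC-like cells were 1.63 above fibroblast-like cells, in 3 of 4 pools (exact sign-flip p = 0.25).

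**Figure D3:**
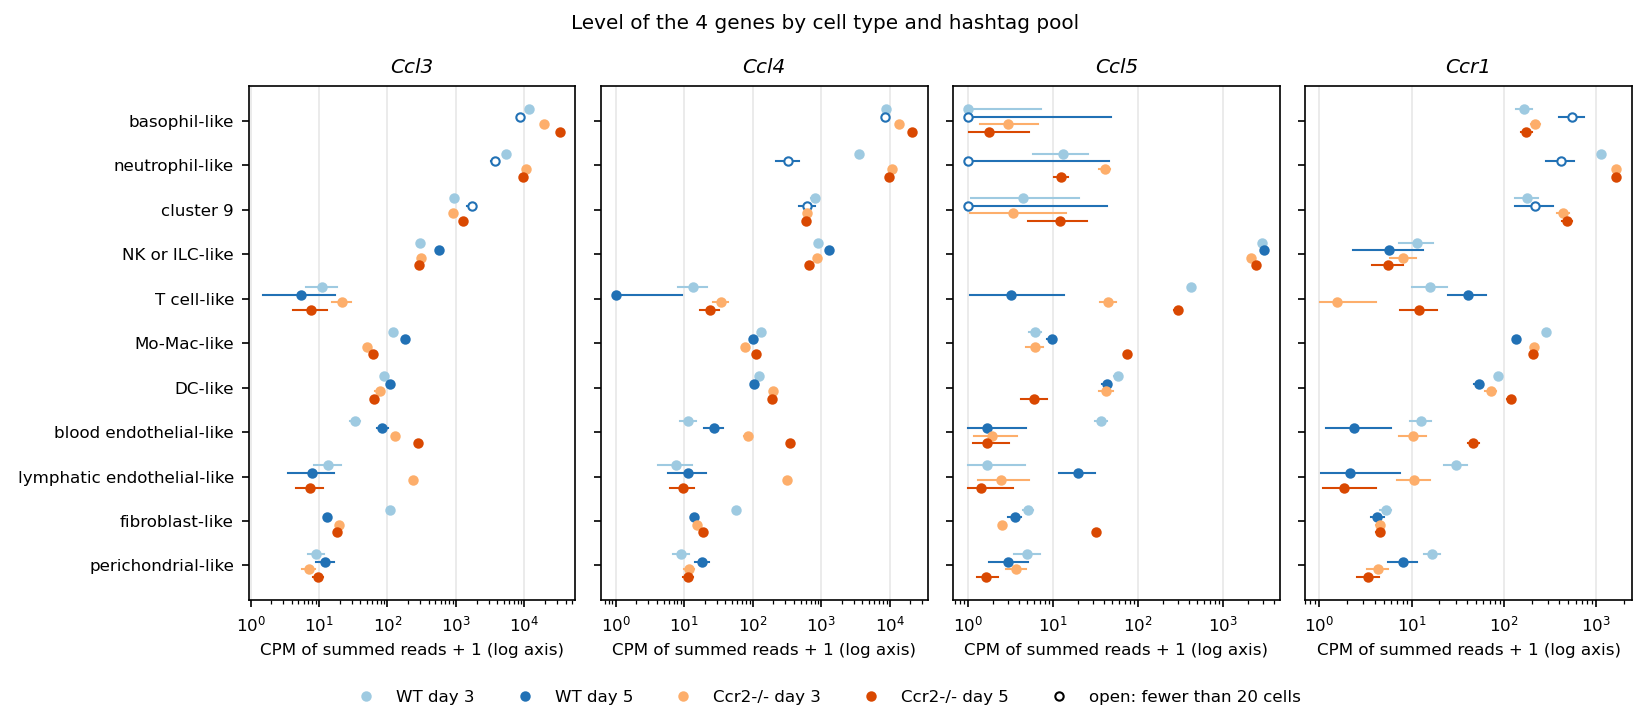
CPM of summed reads + 1 (x axis, log scale) of each gene by cell type and pool, with exact Poisson 95% intervals as bars (many narrower than the point); open points have fewer than 20 cells. Ccl3 and Ccl4 are highest in basophil-like and neutrophil-like cells, Ccl5 in NK or ILC-like cells at 2134 to 3004 CPM, and Ccr1 in neutrophil-like cells, where the pools other than WT day 5 are at 1130 to 1664 CPM.

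Ccl4 had nearly the same distribution. In basophil-like cells it was at 8736 CPM in WT day 3, 8646 CPM in WT day 5, 13777 CPM in Ccr2-/- day 3 and 21483 CPM in Ccr2-/- day 5. In neutrophil-like cells it was at 3591 CPM, 330 CPM, 10895 CPM and 9770 CPM in that order. Both Ccr2-/- pools were again above both WT pools in each type. The share of neutrophil-like cells with a Ccl4 read was 63.8% in WT day 3, 16.7% (1 of 6) in WT day 5, 83.3% in Ccr2-/- day 3 and 78.0% in Ccr2-/- day 5, beside 2.94% to 5.79% of fibroblast-like cells. The median WT day 3 neutrophil-like cell had 4 Ccl4 reads per 5000, and those of the Ccr2-/- pools had 36 and 26.

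NK or ILC-like cells were the next source of Ccl4. Their level was 885 CPM in WT day 3, 1319 CPM in WT day 5, 867 CPM in Ccr2-/- day 3 and 656 CPM in Ccr2-/- day 5. In these cells the transcript was uneven, since 1 cell held 29.9% to 46.0% of the Ccl4 reads of each pool. A read was found in 51.8%, 50.0%, 29.6% and 34.8% of the cells after thinning. Among the 8 types with enough cells, NK or ILC-like cells were highest at 9.82 ± 0.41 on the log2 scale, 2.60 above DC-like cells and higher in 4 of 4 pools (exact sign-flip p = 0.125). DC-like cells were at 123 CPM and 104 CPM in the WT pools and at 196 CPM and 192 CPM in the Ccr2-/- pools, the opposite order to that of Ccl3 in the same cells. Neither order was stable, since the log2 difference of Ccl3 went from -0.47 to 0.77 and that of Ccl4 from 0.77 to -0.55 when cells were typed one by one by their markers (a marker gate).

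Most neutrophil-like and basophil-like cells had reads of both Ccl3 and Ccl4, whereas most cells of the other types examined did not. Of 1142 neutrophil-like cells thinned to 5000 reads, 856 (75.0%) had reads of both, 160 of Ccl3 alone, 44 of Ccl4 alone and 82 of neither. Of 152 basophil-like cells, 149 had both. Of 358 NK or ILC-like cells, 71 had both, 28 Ccl3 alone, 60 Ccl4 alone and 199 neither. Of 1020 Mo-Mac-like cells, 58 had both, 134 Ccl3 alone, 105 Ccl4 alone and 723 neither. Of 393 DC-like cells, 21 had both, 38 Ccl3 alone, 51 Ccl4 alone and 283 neither. These counts depend on how often each gene was found. Of NK or ILC-like cells, 54.2% of those with a Ccl4 read had a Ccl3 read, beside 12.3% of those without. The shares were 95.1% and 66.1% for neutrophil-like, 35.6% and 15.6% for Mo-Mac-like, and 29.2% and 11.8% for DC-like cells. Only 1 basophil-like cell lacked a Ccl4 read, and it had a Ccl3 read. Spearman's rho between the reads of both genes over cells of the 4 pools was 0.617 in neutrophil-like, 0.754 in basophil-like and 0.514 in NK or ILC-like cells. It was 0.211 in Mo-Mac-like and 0.213 in DC-like cells. These cells share libraries, depth and pools, so the values are descriptions. For Ccl3 and Ccr1 in neutrophil-like cells rho was -0.018, although 827 of the 1142 cells had reads of both.

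**Figure D4:**
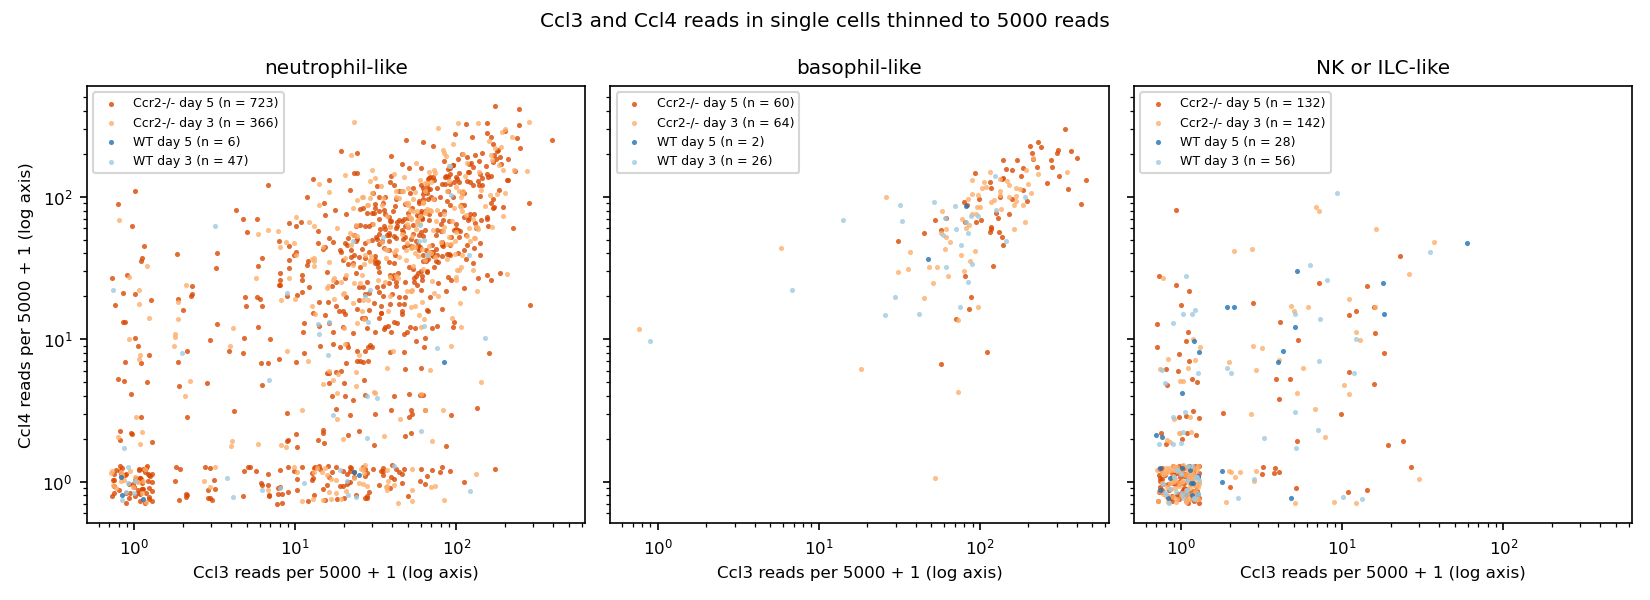
Ccl3 reads (x axis) and Ccl4 reads (y axis) per cell, each + 1 on a log scale and with a small random shift, in neutrophil-like, basophil-like and NK or ILC-like cells thinned to 5000 reads; 1 point is 1 cell and colours are pools. Most of the 152 basophil-like cells lie high on both axes, neutrophil-like cells run from 0 to 390 reads of Ccl3 and 433 of Ccl4, and 199 of the 358 NK or ILC-like cells lie at 0 on both.

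Neutrophil-like cells fell into 2 clusters with different levels. Cluster 2 was led by Il1a, the gene of interleukin-1α, and Clec5a, and cluster 3 by Mrgpra2b, S100a9 and S100a8, of which the S100 genes encode calcium-binding proteins of neutrophils. In the Ccr2-/- pools Ccl3 was at 11679 CPM (day 3) and 12156 CPM (day 5) in cluster 2 and at 7780 CPM and 5959 CPM in cluster 3. Ccl4 was at 12494 CPM and 12510 CPM in cluster 2 and at 6902 CPM and 5967 CPM in cluster 3. Ccr1 had the opposite order, with 1523 CPM and 1379 CPM in cluster 2 and 1957 CPM and 2061 CPM in cluster 3. In WT day 3 the Ccl3 level was alike in both (5411 and 5495 CPM) and Ccl4 was 5895 CPM in cluster 2 and 2225 CPM in cluster 3, but cluster 2 had only 14 cells there. Of the neutrophil-like cells, 14 of 54 were in cluster 2 in WT day 3, 276 of 402 in Ccr2-/- day 3 and 426 of 793 in Ccr2-/- day 5. The part of this split in the genotype difference was not tested.

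**Figure D5:**
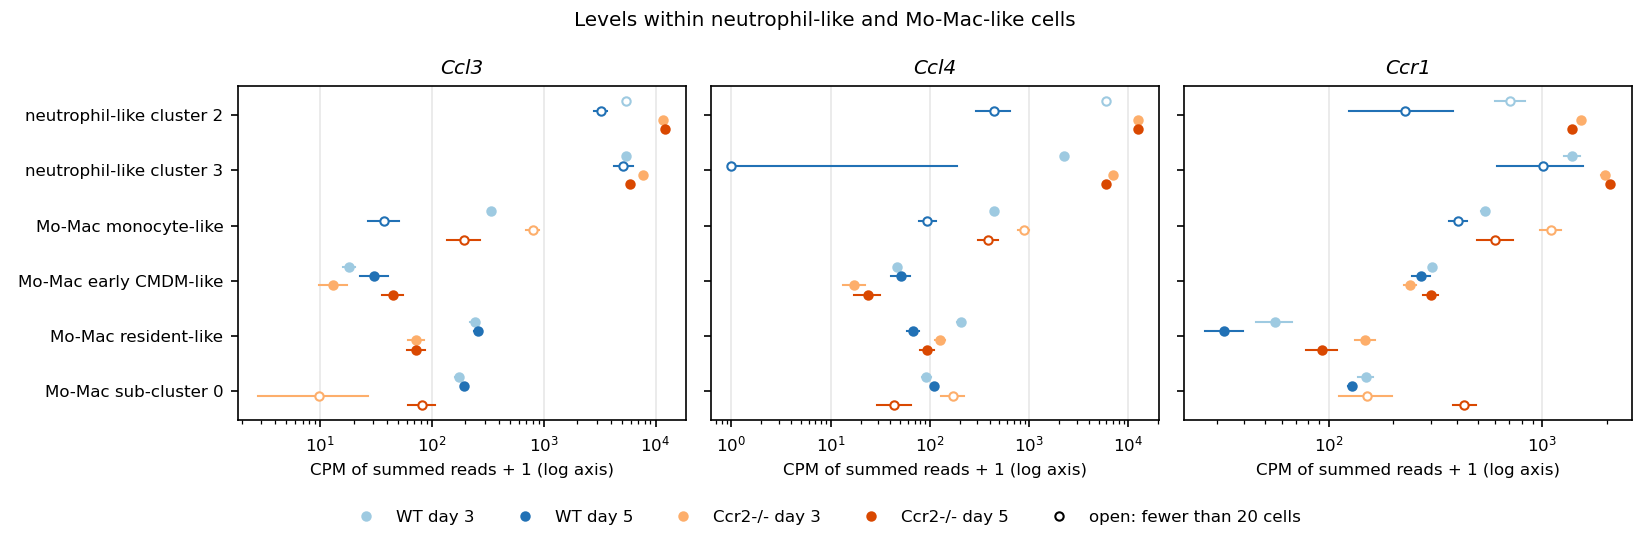
CPM of summed reads + 1 (x axis, log scale) of Ccl3, Ccl4 and Ccr1 in the neutrophil-like clusters and in subsets of Mo-Mac-like cells, by pool, with exact Poisson 95% intervals; open points have fewer than 20 cells. In the Ccr2-/- pools Ccl3 and Ccl4 are higher in neutrophil-like cluster 2 and Ccr1 in cluster 3; early CMDM-like cells have the lowest WT Ccl3 among the Mo-Mac-like subsets at day 3.

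Mo-Mac-like cells had low Ccl3 that was higher in WT. It was at 118 CPM in WT day 3, 178 CPM in WT day 5, 49.2 CPM in Ccr2-/- day 3 and 60.6 CPM in Ccr2-/- day 5. Both WT pools were above both Ccr2-/- pools, by 2.37-fold at day 3 and 2.90-fold at day 5 on CPM + 1. The shares of cells with a read were 16.0%, 24.2%, 10.5% and 19.0%. In an edgeR quasi-likelihood test the log2 difference between the genotypes was -1.37 ± 0.20 (SE), with a Benjamini-Hochberg adjusted p = 0.0593, just outside the threshold of 0.05. Over 12 settings of this fit, the edgeR or DESeq2 adjusted p (Benjamini-Hochberg) ran from 1.45e-06 to 0.422 and was past the threshold in 3, while the log2 difference stayed between -1.67 and -1.09. The subsets behind the level differed in number. Resident-like macrophages were at 241 CPM and 258 CPM of Ccl3 in WT and at 71.2 CPM and 71.3 CPM in Ccr2-/-. Early classical monocyte-derived macrophage-like (early CMDM-like) cells were at 12.2 to 44.0 CPM in the 4 pools. Sub-cluster 0, led by the MHC class II gene H2-Ea, was at 173 CPM and 192 CPM in WT and had 5 or fewer cells in each Ccr2-/- pool.

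Most Ccl5 reads were in NK or ILC-like cells. In NK or ILC-like cells it was at 2879 CPM in WT day 3, 3004 CPM in WT day 5, 2134 CPM in Ccr2-/- day 3 and 2430 CPM in Ccr2-/- day 5. These cells held 79.5%, 81.5%, 93.4% and 70.9% of the Ccl5 reads of their pools. After thinning, 82.1%, 96.4%, 80.3% and 80.3% of them had a Ccl5 read, beside 0.272% to 0.852% of fibroblast-like cells. Both WT pools were above both Ccr2-/- pools, with a mean log2 difference of -0.37 (exact permutation p = 0.333), but with the marker gate the difference was 0.025 (exact permutation p = 1). The fit by edgeR gave -0.32 ± 0.12 (SE) and a Benjamini-Hochberg adjusted p = 0.913. The mean level was 11.34 ± 0.23 on the log2(CPM + 1) scale, 5.31 above T cell-like cells and higher in 4 of 4 pools (exact sign-flip p = 0.125).

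T cell-like cells followed, with values that rested on few cells. Their Ccl5 level was 421 CPM in WT day 3, 2.23 CPM (1 read) in WT day 5, 43.5 CPM in Ccr2-/- day 3 and 295 CPM in Ccr2-/- day 5. A single cell held 43.6% to 100% of the reads of each pool. In T cell-like cells with reads of Cd8a or Cd8b1 but not of Cd4 or Trdc, Ccl5 was at 1090 CPM in WT day 3 (9 cells) and 5118 CPM in Ccr2-/- day 5 (4 cells). In cells with Trdc alone, the γδ T cell receptor gene, at most 2.01 CPM was found in any pool. DC-like cells were at 57.3 CPM, 42.3 CPM, 41.6 CPM and 5.06 CPM, with 1 cell holding 41.2% to 96.5% of the reads. The 73.2 CPM of Mo-Mac-like cells in Ccr2-/- day 5, beside 5.10 to 8.66 CPM in the other pools, came from 1 cell with 97.2% of the reads. Likewise, 1 fibroblast-like cell held 70.2% of the reads behind the 31.6 CPM of that pool.

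The main sources of Ccl3 and Ccl4 had next to no Ccl5. In 155 basophil-like cells it had 4 reads in all, with 0 of 26 cells in WT day 3, where 3 reads would give 5.02 CPM. Neutrophil-like cells were at 12.1 CPM, 0 CPM, 39.9 CPM and 11.5 CPM, and 1.24% to 2.13% of the cells had a read in the 3 pools with more than 6 cells. In NK or ILC-like cells Ccl4 and Ccl5 overlapped. Of 358 thinned cells, 122 had both, 171 Ccl5 alone, 9 Ccl4 alone and 56 neither.

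The receptor gene Ccr1 was highest in neutrophil-like cells, which also carried its ligand transcripts. Its level was 1130 CPM in WT day 3, 416 CPM in WT day 5 (6 cells), 1647 CPM in Ccr2-/- day 3 and 1664 CPM in Ccr2-/- day 5. A read was found in 80.9%, 66.7%, 80.3% and 82.7% of these cells, beside 1.23% to 2.94% of fibroblast-like cells. Leaving aside WT day 5, the share of cells was nearly equal in the pools, while the level of the 2 Ccr2-/- pools was above that of the WT day 3 pool. This was not tested, with 1 pool for each genotype and day.

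Mo-Mac-like cells were the other large group with Ccr1. They were at 285 CPM in WT day 3, 134 CPM in WT day 5, 211 CPM in Ccr2-/- day 3 and 205 CPM in Ccr2-/- day 5, and the genotypes overlapped. A read was found in 47.4%, 27.7%, 36.3% and 42.9% of the cells. Mo-Mac-like cells held 78.2% and 85.7% of the Ccr1 reads in the WT pools but 20.6% and 8.17% in the Ccr2-/- pools. Neutrophil-like cells held 7.48% and 0.871% of them in the WT pools, but 66.8% and 81.1% in the Ccr2-/- pools. Most Ccr1 reads were thus in Mo-Mac-like cells in both WT pools and in neutrophil-like cells in both Ccr2-/- pools. Outside neutrophil-like and basophil-like cells Ccr1 was at 90.1 CPM and 56.4 CPM in the WT pools and at 20.8 CPM and 22.0 CPM in the Ccr2-/- pools. Cell numbers went the same way, with 419 and 410 Mo-Mac-like cells in WT and 132 and 87 in Ccr2-/-.

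Within Mo-Mac-like cells, Ccr1 was highest in monocyte-like cells. These were at 536 CPM in WT day 3 (96 cells), 401 CPM in WT day 5 (17 cells), 1091 CPM in Ccr2-/- day 3 (9 cells) and 601 CPM in Ccr2-/- day 5 (5 cells). Early CMDM-like cells were at 239 to 302 CPM in the 4 pools. Resident-like cells were at 54.8 CPM, 31.4 CPM, 147 CPM and 91.5 CPM. In each pool the order was monocyte-like, early CMDM-like and then resident-like. Among cell types with enough cells, Mo-Mac-like cells were highest at 7.66 ± 0.44 on the log2 scale. DC-like cells (6.31 ± 0.48) were 1.35 lower and blood endothelial-like cells (3.46 ± 1.75) a further 2.85 lower, each in 4 of 4 pools (exact sign-flip p = 0.125 for each step).

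Basophil-like cells had Ccr1 at 166 CPM in WT day 3, 545 CPM in WT day 5 (2 cells), 218 CPM in Ccr2-/- day 3 and 175 CPM in Ccr2-/- day 5. A read was found in 34.6%, 100% (2 of 2), 35.9% and 30.0% of them. Cluster 9 was at 175 CPM, 219 CPM, 441 CPM and 482 CPM. In NK or ILC-like cells, the main source of Ccl5, Ccr1 was at 4.49 to 10.4 CPM, and 1.41% to 3.57% of the cells had a read, close to the fibroblast-like share.

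Genotype and day were tested with edgeR in the 8 cell types with 20 or more cells in every pool, on reads summed per pool, with an additive model that leaves 1 residual degree of freedom. No member was called by genotype in any of 30 pairs of member and cell type at a Benjamini-Hochberg adjusted p under 0.05. An unadjusted p under 0.05 was found in 8 pairs. Of all genes tested, 4151 of 19985 had such a p in fibroblast-like, 2522 of 16230 in Mo-Mac-like and 1325 of 13367 in DC-like cells. The counts were 1328 of 14787 in perichondrial-like, 686 of 10830 in lymphatic endothelial-like and 612 of 12965 in blood endothelial-like cells. In NK or ILC-like cells it was 593 of 11714, and the share was lowest in T cell-like cells. Over all genes, the percentage called by genotype was 0.302% in Mo-Mac-like cells, 0.139% in lymphatic endothelial-like cells, 0.00977% in T cell-like, 0.00771% in blood endothelial-like and 0.00676% in perichondrial-like cells, and 0% in DC-like, NK or ILC-like and fibroblast-like cells. DESeq2 called 3 of the 29 pairs for which it gave an adjusted p. These were Ccl3 in Mo-Mac-like cells and Ccl3 and Ccl4 in blood endothelial-like cells. Of all genes, DESeq2 called 4.11% by genotype in Mo-Mac-like, 0.591% in blood endothelial-like, 11.1% in fibroblast-like, 1.91% in DC-like, 1.12% in NK or ILC-like, 0.941% in perichondrial-like, 0.539% in lymphatic endothelial-like and 0.226% in T cell-like cells.

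In blood endothelial-like cells Ccl3 was at 32.7 CPM, 83.1 CPM, 126 CPM and 274 CPM, and Ccl4 at 10.4 CPM, 26.5 CPM, 83.1 CPM and 354 CPM (WT at days 3 and 5, then Ccr2-/- at days 3 and 5). The log2 difference between genotypes was 1.84 ± 0.30 for Ccl3 and 3.37 ± 0.36 for Ccl4, with edgeR Benjamini-Hochberg adjusted p = 0.516 and 0.177. Over 12 settings of the fit, Ccl4 was called in 4. A single cell held 26.1% to 60.5% of the Ccl4 reads of each pool, and 4.82% to 13.3% of cells had a read after thinning. The Ccr2-/- pools also held the most neutrophil-like cells, and the part of their RNA in these values was not tested.

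By day, no member was called by edgeR in 30 pairs (Benjamini-Hochberg), and 6 had an unadjusted p under 0.05. Of all genes tested, such a p was found for 1321 of 19985 in fibroblast-like, 1377 of 16230 in Mo-Mac-like and 525 of 14787 in perichondrial-like cells. The counts were 429 of 13367 in DC-like, 405 of 10830 in lymphatic endothelial-like and 463 of 12965 in blood endothelial-like cells. In NK or ILC-like and T cell-like cells they were 257 of 11714 and 242 of 10234. The percentage of all genes called by day was 0.0462% in lymphatic endothelial-like, 0.0195% in T cell-like and 0.00771% in blood endothelial-like cells, and 0% in the other 5 types. DESeq2 called 1 pair, Ccl5 in Mo-Mac-like cells, the value that rested on 1 cell. Of all genes it called 0.959% by day in Mo-Mac-like cells, 1.04% in fibroblast-like, 0.214% in lymphatic endothelial-like, 0.105% in T cell-like, 0.103% in blood endothelial-like, 0.0777% in DC-like, 0.0579% in perichondrial-like and 0% in NK or ILC-like cells.

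The other listed ligands of CCR1, Ccl6, Ccl7, Ccl8 and Ccl9, were not limited to the cell types whose levels are given here. In fibroblast-like cells the log2 difference between genotypes was 0.82 ± 0.071 (SE) for Ccl7 and 1.21 ± 0.090 for Ccl8. Neither was called there (edgeR, Benjamini-Hochberg adjusted p = 0.0968 for each). All 4 were tested in all 8 types, and none was called by genotype except Ccl8 in perichondrial-like cells, which fell by 2.64 on the log2 scale in Ccr2-/- (edgeR, Benjamini-Hochberg adjusted p = 0.0367). That call was lost in 4 of 12 settings, among them no mitochondrial limit and the marker gate, where the edgeR adjusted p was 0.123 and 0.706. In Mo-Mac-like cells Ccl8 was at 7249 CPM in WT day 3, 18154 CPM in WT day 5, 9193 CPM in Ccr2-/- day 3 and 11960 CPM in Ccr2-/- day 5, and Ccl7 was at 3773 CPM, 919 CPM, 8983 CPM and 5854 CPM. Basophil-like cells had Ccl9 at 4880 CPM, 1441 CPM, 4878 CPM and 5079 CPM and Ccl6 at 3207 CPM, 3219 CPM, 4301 CPM and 6397 CPM. Neutrophil-like cells had Ccl9 at 25.5 to 225 CPM. In Mo-Mac-like cells the median log2 difference between genotypes was 0.26 over the 4 ligands and -0.03 over all genes tested. By day, Ccl8 in lymphatic endothelial-like cells fell by 2.80 (edgeR, Benjamini-Hochberg adjusted p = 0.0405), a call lost in 3 of 8 settings, at an adjusted p of 0.247 with library sizes only, 0.155 at a hashtag ratio of 10 and 0.739 with the marker gate.

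Of the other receptors and scavengers of these chemokines, 4 of the 5 listed had a row. Ccr3, the eotaxin receptor of eosinophils and basophils, was at 140 CPM, 450 CPM, 378 CPM and 482 CPM in cluster 9 and at 0 to 56.4 CPM in basophil-like cells. Ccrl2, an atypical receptor that signals little by itself, was at 3524 CPM, 2397 CPM, 4075 CPM and 3695 CPM in neutrophil-like cells and at 26.0 to 177 CPM in basophil-like cells. Ackr2, which removes inflammatory CC chemokines in lymphatic vessels, was at 8.0 CPM, 2.3 CPM, 155 CPM and 250 CPM in lymphatic endothelial-like cells. It rose by 5.09 on the log2 scale in Ccr2-/- (edgeR, Benjamini-Hochberg adjusted p = 0.00580) and was the 1 receptor of the list that was called in any of the 8 types. The call was lost in 2 of 12 settings, at an edgeR adjusted p of 0.0840 with library sizes only and 0.0988 without Ccr2-/- day 5. The 6 receptor signalling genes (Gnai2, Gnai3, Pik3cg, Arrb2, Rgs1 and Rgs2) had no call by genotype or day, with a median log2 difference between genotypes of -0.14 in Mo-Mac-like cells, beside -0.03 over all genes. Gnai2, the G protein subunit through which these receptors act, was at 1352 to 2005 CPM in neutrophil-like cells. Rgs1, which dampens that signal, was at 1672 CPM, 402 CPM, 3876 CPM and 6832 CPM in basophil-like cells and at 20.8 to 220 CPM in neutrophil-like cells.

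Of 8 cytokine and cytotoxic granule genes of lymphocytes (Xcl1, Ifng, Tnf, Csf2, Gzma, Gzmb, Prf1 and Nkg7), all were tested in NK or ILC-like cells. None was called there by genotype or day. The cytotoxic granule genes were high in these cells, with Gzma at 17583 CPM, 12985 CPM, 26542 CPM and 26828 CPM and Gzmb at 3312 CPM, 794 CPM, 8695 CPM and 7399 CPM. Ifng was at 137 CPM, 308 CPM, 195 CPM and 158 CPM in the same cells. In T cell-like cells Gzma was at 24.4 CPM, 33.5 CPM, 596 CPM and 599 CPM and rose by 4.40 on the log2 scale in Ccr2-/- (edgeR, Benjamini-Hochberg adjusted p = 0.0301). This call was lost in 3 of 12 settings, at an edgeR adjusted p of 0.0627 with library sizes only, 1 at a hashtag ratio of 10 and 0.999 with the marker gate, and the last 2 gave log2 differences of 2.22 and 1.82. Tnf was at 495 CPM, 220 CPM, 801 CPM and 926 CPM in neutrophil-like cells and at 5.2 to 23.0 CPM in NK or ILC-like cells. The median log2 difference between genotypes in NK or ILC-like cells was 0.22 over the 8 genes and 0.10 over all genes tested. The 6 NF-kB feedback genes (Nfkbia, Tnfaip3, Nfkb1, Nfkb2, Ier3 and Zfp36) were tested in all 8 types with no call by genotype or day, and their median log2 difference between genotypes in Mo-Mac-like cells was -0.42, beside -0.03 over all genes tested. Nfkbia, the inhibitor that NF-kB itself induces, was at 5527 to 6892 CPM in neutrophil-like cells, at 2246 to 6621 CPM in basophil-like cells and at 915 to 1126 CPM in NK or ILC-like cells.

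Over 52 profiles of cell type by pool with 20 or more cells, the patterns of the ligands fell into 2 kinds. Pearson's r of log2(CPM + 1) between Ccl3 and Ccl4 was 0.958, the highest for either among 10318 genes. Against Ccl5 it was 0.072 for Ccl3 and 0.209 for Ccl4. After Ccl4, the genes most like Ccl3 were Acod1 (0.839), Cyp4f18 (0.831), Clec4e (0.807) and Cxcr2 (0.806). Those most like Ccl4 after Ccl3 were Mirt1 (0.814), Lmnb1 (0.796), Clec4e (0.786) and Vmn1r86 (0.775). For Ccl5 they were Ifng (0.851) and the NK receptor genes Klrd1 (0.832), Klrc2 (0.831) and Klrb1c (0.823), with Fasl (0.814). For Ccr1 they were Clec4e (0.850), the integrin gene Itgam (0.848), Ccrl2 (0.844), Litaf (0.828) and Plek (0.826). The profiles share 4 pools and 1 library, so these values are descriptions.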

How the data were processed

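Skin cells of 4 hashtag pools (WT and Ccr2-/-, days 3 and 5 of IgE-CAI) were measured by TAS-Seq on BD Rhapsody. The deposited values are counts: after Cutadapt trimming, the authors aligned reads with Bowtie2 to Ensembl RNA of mouse (GRCm38.p6), chose barcodes by the inflection of a knee plot and counted reads per gene and barcode, and hashtag reads likewise. The methods describe a subtraction of background reads, and whether the deposited matrix is before or after it is not given in the sources used here. PCR copies are counted separately, so intervals of levels cover the counting error of reads only and are too narrow for that of molecules. In all, 9 further hashtag columns were not used.

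Each barcode went to its leading hashtag (reads plus a pseudocount of 1, scaled by hashtag totals) if that was at least 3 times the next. Of 8953 barcodes, 760 had under 10 hashtag reads, 570 carried several hashtags and were left out as multiplets, and 505 had over 20% mitochondrial reads or under 200 genes. No other doublet caller was run. Cells were clustered with scanpy 1.11.5 (2000 variable genes without chemokines and their receptors, 30 components, 20 neighbours, Leiden resolution 1). Clusters were named from marker lists where at least 3 markers passed, and names rest on transcripts alone.

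Shares carry exact binomial intervals in the tables, and thinning to 5000 reads left out shallower cells, keeping 1437, 1000, 2012 and 2141 cells. Genotype was compared by exact permutation of pools (scipy 1.17.1) on log2(CPM + 1) and by edgeR 4.0.16 (R 4.3.3; TMM, filterByExpr, quasi-likelihood, additive in day and genotype), with DESeq2 1.42.0 as an alternative. The edgeR script was tested on simulated data. The pools are single samples, so p-values measure only the spread between pools. Neighbouring cell types were compared by exact sign flips over the 4 pools. Genes named are the 4 members, 28 genes of 5 lists, and the 5 genes most like each member by Pearson's r among those with a mean of at least 10 CPM. The members and lists were chosen with earlier results of these data known. Promoters and positions were matched by symbol.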

Additional observations from a re-analysis of the deposited data

Results flagged for a closer look

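The difference between genotypes had opposite signs on day 3 and day 5 in 7 of 17 values (4 over whole pools and 13 pairs of member and cell type in which the share of cells with a read was above that of fibroblast-like cells). None of these changes with day was tested, since each genotype and day had 1 pool. As log2 of Ccr2-/- minus WT, Ccl5 over all cells was -0.30 at day 3 and 1.08 at day 5, and Ccr1 over all cells was -0.54 and 1.01. Ccr1 in DC-like cells was -0.26 and 1.15. In Mo-Mac-like cells Ccl4 was -0.79 and 0.16, Ccl5 was -0.020 and 2.94, and Ccr1 was -0.43 and 0.61. The Ccl5 value of 2.94 rests on 1 cell with 97.2% of the reads. Ccl3 in NK or ILC-like cells was 0.076 at day 3 and -0.97 at day 5.

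The 570 barcodes with several hashtags, which entered no comparison, also had reads of all 4 genes. In their summed reads Ccl3 was at 464 CPM, Ccl4 at 332 CPM, Ccl5 at 56.6 CPM and Ccr1 at 62.5 CPM. In the 7118 cells kept, the levels were 513, 469, 74.2 and 87.0 CPM.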

How the results depend on the processing

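Of the values of the genotype difference under other settings, 117 kept their direction and 15 turned, all of them in DC-like, NK or ILC-like or Mo-Mac-like cells; the differences over whole pools kept their direction but not their size. With the mean of the cells' CPM they were 3.32 for Ccl3 (2.18 in summed reads), 3.59 for Ccl4 (2.34), 0.67 for Ccl5 (0.39) and 2.07 for Ccr1 (0.23), and without cells of over 100000 reads 3.38, 3.44, 1.02 and 1.43. Under both, the genotypes of Ccl5 and Ccr1, which overlapped in summed reads, did not overlap. The cause was not tested. All values are log2 of Ccr2-/- minus WT. With no mitochondrial limit, Ccl3 in DC-like cells was 0.62 in place of -0.47. At resolution 2 it was 0.54, and Ccl5 in DC-like cells was 0.0092 in place of -1.64. With a marker gate per cell in place of clusters, DC-like cells gave 0.77 for Ccl3, -0.55 for Ccl4 (0.77) and -0.025 for Ccr1 (0.44), and NK or ILC-like cells gave 0.14 for Ccl3 (-0.45), 0.26 for Ccl4 (-0.52), 0.025 for Ccl5 (-0.37) and 0.82 for Ccr1 (-0.28), with the values reported above in parentheses. With the mean of the cells' CPM, Ccr1 in DC-like cells was -0.66. Without the cell with the most reads, Ccl5 in Mo-Mac-like cells was -0.45 in place of 1.46. Without cells of over 100000 reads, a setting chosen after the data were seen, Ccl3 in DC-like cells was 0.22, Ccr1 in DC-like cells -0.99 and Ccl5 in Mo-Mac-like cells -1.05. The level of Ccl5 in NK or ILC-like cells, 11.34 on the log2 scale, was 11.04 with the gate and 11.98 as the mean of the cells' CPM. In contrast, 47 other values of levels moved by less than the spread between pools. Shares of cells with a read were less stable. In the leading cell types, they were taken again after thinning to 10000 reads, or with 3 or more reads required. Of these values, 10 lay outside the exact binomial 95% interval of the reported share and 4 lay inside it.

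Calls depended strongly on the setting. Summed over 8 cell types, genotype called 67 genes, and 12 with library sizes only, 2650 with no filter on low counts, 2762 with DESeq2, 192 at a hashtag ratio of 10, 41 with no mitochondrial limit and 107 with the gate. Leaving out 1 pool in turn gave 208 to 1055. In Mo-Mac-like cells 49 genes were called, and 7, 1081, 580, 168, 18 and 1 in the same order, with 0 to 301 when 1 pool was left out (0 without either Ccr2-/- pool, 301 without WT day 3). Among the members 0 of 30 pairs were called. The counts were 4 of 32 with no filter, 3 of 29 with DESeq2, 1 of 26 at the hashtag ratio of 10 and 2 of 30 with the gate. With no filter these were Ccl3 and Ccl5 in Mo-Mac-like cells, beside 1081 of 27359 genes. Ccl3 and Ccl4 in blood endothelial-like cells stood beside 134 of 22284. At the hashtag ratio of 10 it was Ccl4 in blood endothelial-like cells, beside 16 of 12804 genes. With the gate it was Ccl4 in blood and lymphatic endothelial-like cells, beside 2 of 12320 and 27 of 11586. Day called 8 genes, and 2 with library sizes only, 547 with no filter, 315 with DESeq2, 3 at the hashtag ratio of 10 and 5 with the gate. In Mo-Mac-like cells day called 0 genes, 357 with no filter and 125 with DESeq2. Among the members day called 0 of 30 pairs, 3 of 32 with no filter and 1 of 29 with DESeq2. The 3 were Ccl5 in Mo-Mac-like (357 of 27359 genes), Ccl4 in blood endothelial-like (51 of 22284) and Ccl3 in lymphatic endothelial-like cells (50 of 19869). With DESeq2 it was Ccl5 in Mo-Mac-like cells (125 of 13037 genes). With 1 pool left out, the lone pool is assumed to vary like the others. At the hashtag ratio of 10, DC-like cells had under 20 cells in a pool and could not be fitted, which left 7 types. The labels carry no replicate numbers, so there was no replicate block, and day, which pools of both genotypes share, was a term in each fit of all 4 pools.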
